A study of Mus musculus with 24 samples.

Results

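The terminal ileum of germ-free mice was compared with that of conventional mice, both given water and no fructan, in 8 of the 24 arrays of a series on dietary fructans. The members were chosen by the sample titles alone: the 4 germ-free mice and the 4 conventional mice of the water groups. All 18820 genes with a probe set that carries 1 gene symbol were described. All mice were C57BL/6OlaHsd males of 8 weeks on the purified low-fat diet D12450B. The conventional mice were specified pathogen-free animals from a commercial supplier, and the germ-free mice came from a university breeding colony and were tested for sterility. Colonization and the source and housing of the mice therefore cannot be told apart. Each water mouse received sterile water by gavage once a day for 5 days, as the control of the short-chain and long-chain β2→1-fructan groups. RNA was taken from a whole piece of terminal ileum and hybridised to 1 Affymetrix Mouse Gene 1.1 ST array per mouse.

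The terminal ileum is the part of the small intestine with the densest microbiota, and it takes up bile acids, vitamin B12 and the remaining nutrients. Its epithelium answers microbes with antimicrobial proteins, with oxidases at the apical membrane and with antigen presentation. Below and between the epithelial cells lie intraepithelial lymphocytes and plasma cells that make immunoglobulin A (IgA). In a piece of whole wall, fewer cells of a type and less RNA per cell cannot be told apart. Values are log2 expression values, so a difference of 1 is 2-fold. Differences are germ-free minus conventional, with their standard error (SE) from a linear model in limma over all 24 arrays. A gene was called at a Benjamini-Hochberg adjusted p under 0.05 over all genes.

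Arrays of the 8 water mice correlated with r between 0.985 and 0.990 within groups and between 0.980 and 0.984 across groups, over all 35556 probe sets. The first principal component held 45.8% of the variance and separated the groups, and the second, with 12.8%, spread the germ-free mice. The label of ileum was checked with Fabp6, the ileal bile acid binding protein, which was at 12.52 ± 0.09 (SD, n = 4) in conventional and 12.64 ± 0.11 in germ-free mice, and with villin (Vil1), at 11.59 ± 0.07 and 11.65 ± 0.09. Of the genes known to differ between substrains of C57BL/6, Mmrn1 was at 2.64 ± 0.08 (SD, n = 4) in conventional and 2.74 ± 0.10 in germ-free mice. Nnt had a mean of 8.64 in both groups. Crb1 differed by 0.002 (adjusted p = 0.996) and was not called. Cyfip2, which regulates actin, was called lower at −1.05 (SE 0.10, adjusted p = 1e-07). Whether the groups differ in substrain was not tested.

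Germ-free mice differed among themselves in genes of fat and muscle. The mean of 16 adipocyte genes, centred over the 8 mice, was between −0.50 and −0.30 in conventional mice. It was −0.28, 0.86, 1.11 and −0.01 in germ-free mice 1 to 4. Germ-free mice 2 and 3 thus had the highest level of fat genes. Adipoq, the hormone adiponectin of fat cells, was at 6.01, 6.03, 6.16 and 6.12 in conventional and at 5.71, 7.54, 8.29 and 6.32 in germ-free mice. Its groups overlapped, and it was not called (0.89, SE 0.45, adjusted p = 0.21). Counts were therefore also taken without germ-free mice 2 and 3, and are given where they moved by over 1.5 times. The mean of 19 smooth muscle genes was 0.18 to 0.29 in conventional mice and −0.19, −0.70, 0.11 and −0.18 in germ-free mice 1 to 4. In it, all germ-free mice lay below all conventional mice.

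**Figure D1:**
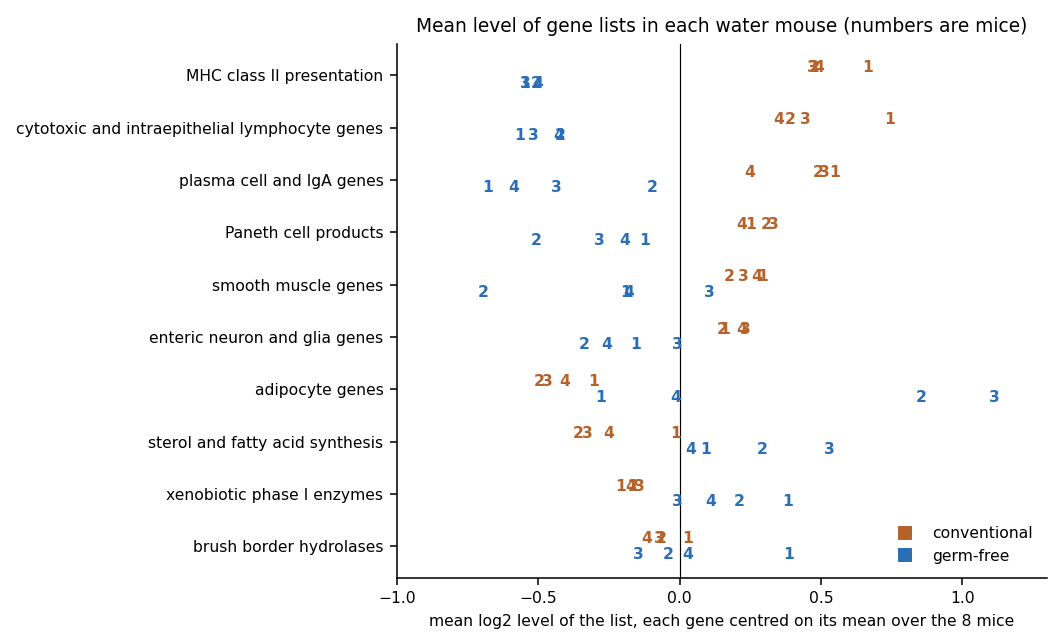
Mean log2 level of 10 gene lists in each of the 8 water mice, each gene centred on its mean over the 8 mice; the digits are the mouse numbers, brown for conventional and blue for germ-free. Adipocyte genes were high in germ-free mice 2 and 3 (0.86 and 1.11), while MHC class II genes separated all 4 germ-free from all 4 conventional mice.

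Germ-free and conventional ileum differed in 2547 of 18820 genes, 13.5% of those tested. Of these, 1054 (5.6% of genes tested) were higher in germ-free mice and 1493 (7.93%) were lower. The counts of each gene list below stand against these shares. The median log2 difference over all genes was 0.01, and the median size of a called difference was 0.43. At least 2-fold differences were fewer, with 57 genes higher and 114 lower, and 7 and 27 genes reached 4-fold. At the thresholds of the study, an unadjusted p under 0.01 and a fold over 1.3, 1644 genes passed (8.74%), of which 522 were higher and 1122 lower. All 4 germ-free mice lay above all 4 conventional mice in 1596 genes (8.48%) and below them in 1764 (9.37%). For 1 gene, the exact permutation test over the 35 divisions of 8 mice gives two-sided p = 0.029 when the groups do not overlap, the smallest it allows. The higher calls were 601 without germ-free mice 2 and 3, and 700 without conventional mouse 2.

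**Figure D2:**
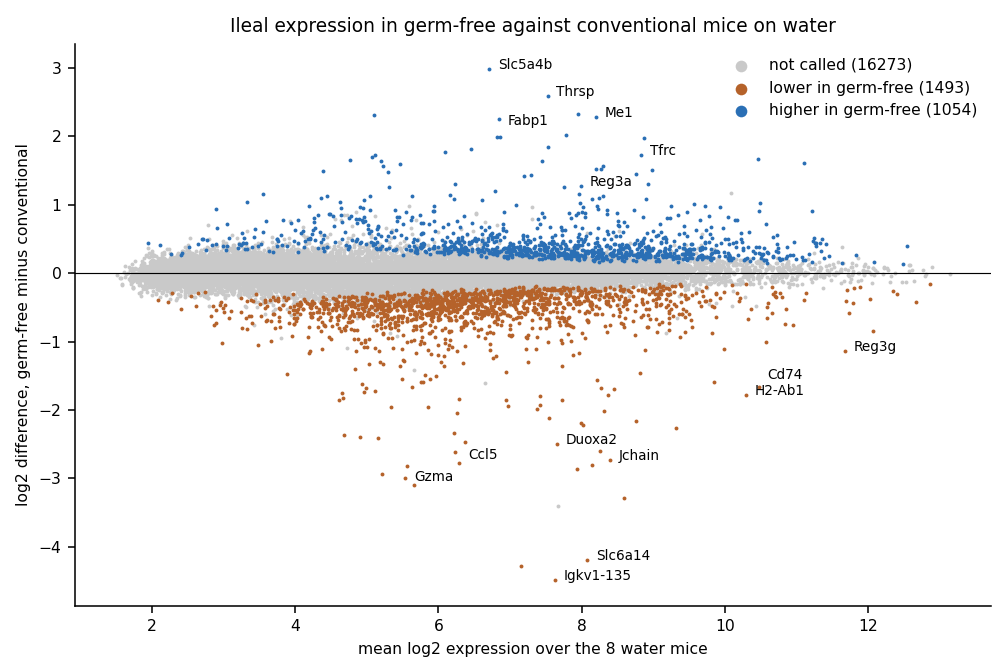
Log2 difference between germ-free and conventional ileum on water (vertical axis) against the mean log2 expression over the 8 mice (horizontal axis), 1 point per gene, blue for genes called higher, brown for genes called lower and grey for genes not called. The largest differences were downward, with 27 called genes at least 4-fold lower and 7 at least 4-fold higher.

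Of the 15 lowest called genes in germ-free mice, 8 were of immunoglobulin chains. They included 4 kappa variable genes, of which the lowest was at −4.49 and the others were Igkv6-20 (−4.28), Igkv8-30 (−3.10) and Igkv5-43, the heavy chain genes Ighg3 (−3.29), Ighv1-72 (−2.86) and Ighm (−2.81), and Igkc (−2.60). The others of the 15 lowest were the amino acid transporter Slc6a14, the granzyme Gzma, Ceacam10 (−2.82), the chemokine Ccl5, the J chain of polymeric immunoglobulins (Jchain), the tyrosine aminotransferase Tat (−2.62) and the oxidase maturation factor Duoxa2. The 15 highest called genes were led by Slc5a4b, a member of the sodium and sugar cotransporter family, and by Thrsp, Akr1c19 (2.33), 1700057G04Rik (2.31), Me1, Fabp1, Angptl4 and Aadac. They ended with Cyp2e1 (1.99), Tm4sf4 (1.97), Rab30 (1.84), Ces1g (1.81), A530016L24Rik (1.77), Tfrc and Slc28a1 (1.73). Cyp2e1 and A530016L24Rik were not called without germ-free mice 2 and 3 (adjusted p = 0.19 and 0.28). Igkv5-43 (−2.93) was not called without conventional mouse 1 (−1.85, adjusted p = 0.12), germ-free mouse 1 (adjusted p = 0.070) or germ-free mouse 3 (adjusted p = 0.073).

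**Figure D3:**
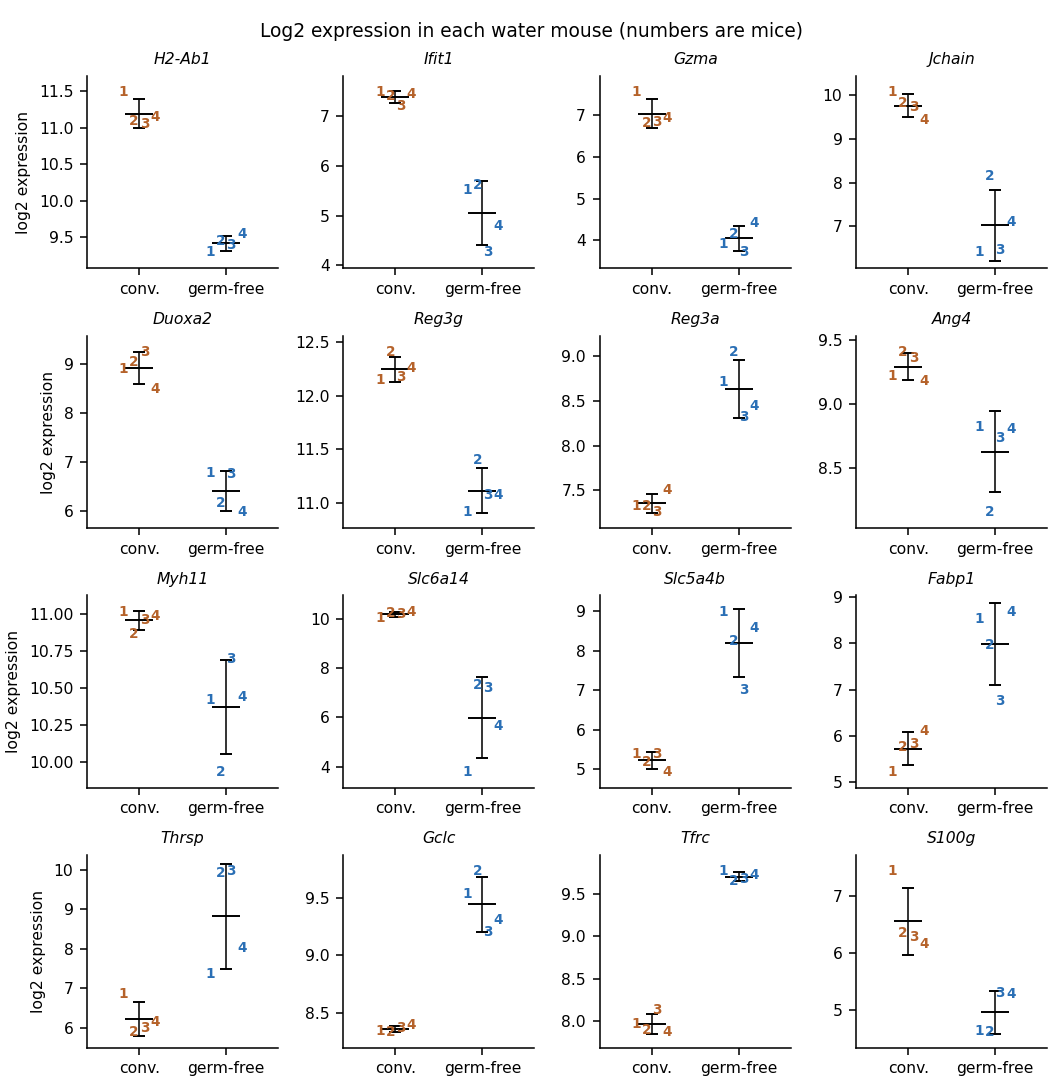
Log2 expression of 16 genes in each of the 8 water mice, 1 panel per gene with its own axis that does not start at 0; the digits are the mouse numbers and the bars are the group mean and SD (n = 4). H2-Ab1 and Tfrc showed tight groups far apart, while Slc6a14 and Thrsp varied among germ-free mice.

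**Figure D4:**
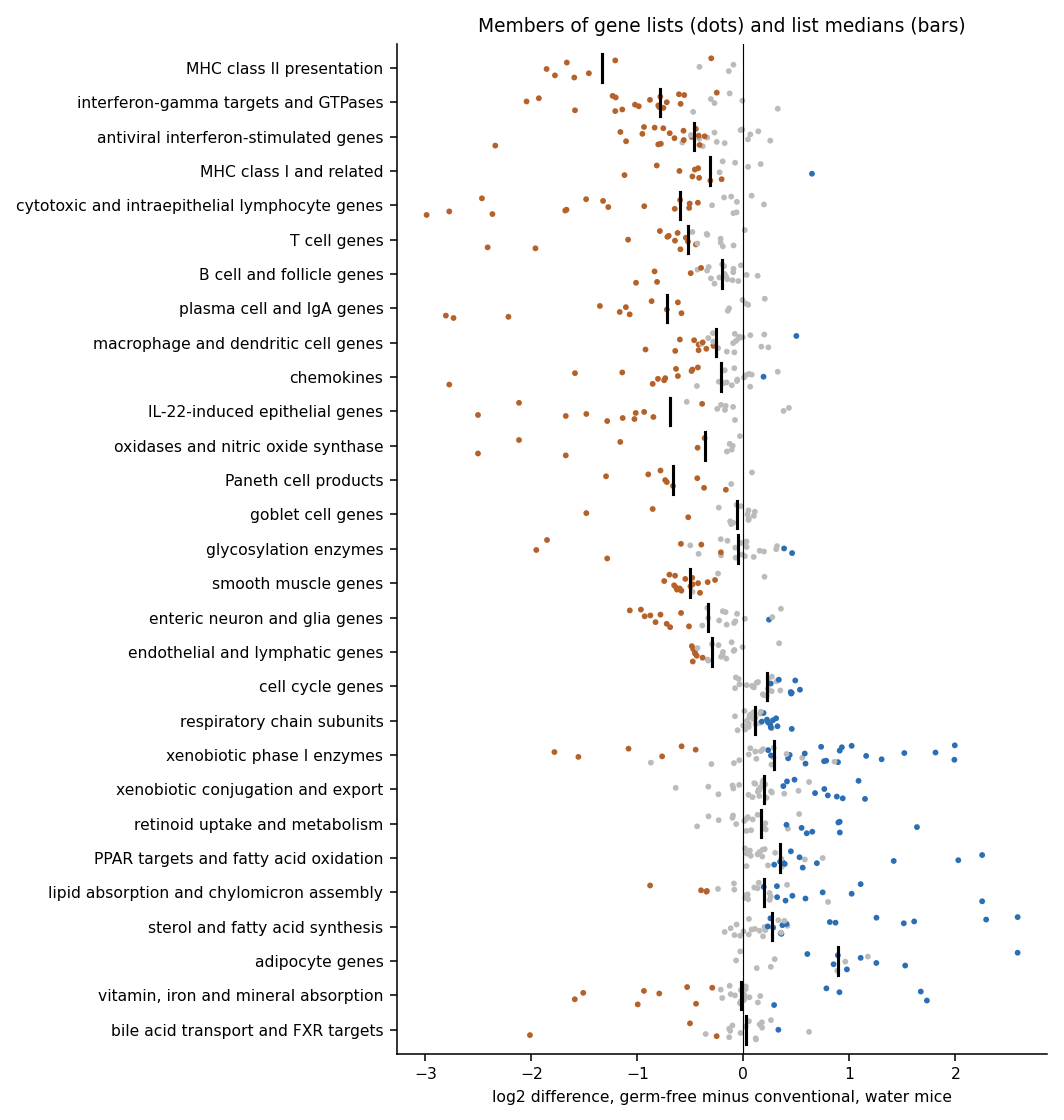
Log2 difference between germ-free and conventional water mice for the members of 29 gene lists, 1 dot per gene, blue for genes called higher, brown for genes called lower and grey for the others; the black bar is the median of the list. Of the MHC class II list, 7 of 10 genes were lower (median −1.33), and of the adipocyte list, 8 of 16 were higher (median 0.89).

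Genes of MHC class II, which loads peptides from endocytosed protein for CD4+ T cells, were lower in germ-free mice. Of the 10 genes of the list, 7 were called lower and 0 higher, with a median of −1.33. H2-Ab1, the beta chain of the I-A molecule (chr17:34263227-34269418 of GRCm38), was at 11.49, 11.09, 11.05 and 11.15 in conventional mice. In germ-free mice it was at 9.29, 9.44, 9.39 and 9.54. The groups were far apart, with the lowest conventional mouse above the highest germ-free mouse, and the difference was −1.78 (SE 0.09, adjusted p = 6.6e-13), or 3.43-fold. Cd74, the invariant chain, was at 11.45, 11.34, 11.21 and 11.25 in conventional and at 9.57, 9.64, 9.62 and 9.76 in germ-free mice (−1.67, SE 0.09, adjusted p = 6.6e-13). Ciita, the transactivator that switches on the whole class, was at 6.79, 6.82, 6.71 and 6.41 in conventional and at 5.43, 5.48, 5.63 and 5.34 in germ-free mice. It was 2.31-fold lower (adjusted p = 2.6e-05), without overlap. H2-DMa, which exchanges peptides on class II, was lower by −1.86, H2-Aa by −1.60 and H2-Eb1 by −1.46. Cathepsin S, Ctss, which trims the invariant chain, was lower by −0.30. H2-Oa (−0.41, adjusted p = 0.19) and H2-Eb2 (−0.14, adjusted p = 0.60) did not pass the test.

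The promoters of class II genes carry a Y box that the factor NF-Y binds, whose letters are GATTGG, or CCAATC on the other strand. The windows of H2-Aa and H2-Eb1 are printed because both genes were among the clearest differences. Each is the 160 bases before the gene's start in the RefSeq entry of GRCm38.p6, in capitals where the 6 letters were found on either strand.
H2-Aa: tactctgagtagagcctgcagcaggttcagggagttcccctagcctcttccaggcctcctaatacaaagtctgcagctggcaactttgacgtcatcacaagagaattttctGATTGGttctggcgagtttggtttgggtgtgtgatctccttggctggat
H2-Eb1: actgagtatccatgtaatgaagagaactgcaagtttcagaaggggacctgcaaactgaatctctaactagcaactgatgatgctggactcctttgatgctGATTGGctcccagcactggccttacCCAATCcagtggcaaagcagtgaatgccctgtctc
H2-Aa lies on the minus strand at chr17:34287824-34287983, with the letters starting 49 bases before the start of the gene. H2-Eb1 lies on the plus strand at chr17:34305707-34305866, with matches 60 and 35 bases before the start. For the shares, whole promoter entries were searched, which are longer than the printed windows and run past the start. The letters were found in 6 of the 7 class II genes with a promoter entry (85.7%) and in 3031 of all 14749 (20.6%). They were present in 18.6% of the promoters of genes called lower and in 24.9% of those of genes called higher. In the class II list, H2-Eb2, H2-Oa and H2-Ob held the letters and were not called, while Ctss was called lower without them.

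Targets of interferon-γ, the cytokine of T cells and innate lymphocytes, were lower in 19 of 25 genes and higher in 0, with a median of −0.78. Psmb8, a subunit of the immunoproteasome that cuts peptides for class I, was at 8.60, 8.34, 8.40 and 8.22 in conventional and at 6.38, 6.57, 6.50 and 6.40 in germ-free mice (−1.93, SE 0.17, adjusted p = 9.6e-09). Ido1, which breaks down tryptophan, was at 7.42, 7.29, 7.30 and 7.12 in conventional and at 5.74, 4.97, 4.56 and 5.68 in germ-free mice. Neither gene overlapped between the groups, and Ido1 was 4.13-fold lower (adjusted p = 1.3e-06). The transporter of peptides Tap1 was lower by −1.23, its partner tapasin (Tapbp) by −0.61, the other immunoproteasome subunits Psmb9 and Psmb10 by −1.21 and −0.78, and the guanylate-binding protein Gbp3 by −0.79. Ifng itself was at 3.07 ± 0.14 and 3.01 ± 0.20 (SD, n = 4), and was not called (adjusted p = 0.78). Both levels were low, well below the array medians of 4.92 to 4.97.

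Of 15 genes of MHC class I, 9 were called lower and 1 higher, with a median of −0.31. Without germ-free mice 2 and 3, 4 were lower, and 5 without any 1 of conventional mice 1 and 4 and germ-free mice 2 and 3. H2-Q6 was lower by −1.12, H2-M3, which presents formylated peptides, by −0.82, H2-T23 by −0.60 and the classical H2-K1 by −0.31. The exception was H2-Q10, a secreted molecule, at 0.65 (SE 0.11, adjusted p = 0.00012). Of 28 chemokines, 12 were lower and 1 was higher, with a median of −0.21. The interferon-induced Cxcl9 (−1.59) and Cxcl10 (−1.14) attract T cells, Ccl22 (−0.74) attracts regulatory T cells, and Cxcl16 (−0.64) also acts as a scavenger receptor. Genes of near-identical families, among them H2-Q, Gbp, Igkv, Defa, Ces and Cyp, may share labelled RNA between probe sets.

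Antiviral interferon-stimulated genes, which block steps of viral replication, were lower in 18 of 32 and higher in 0, with a median of −0.47. The lower genes were 11 without germ-free mice 2 and 3. Ifit1, which binds viral RNA caps, was at 7.48, 7.40, 7.21 and 7.44 in conventional and at 5.52, 5.61, 4.26 and 4.79 in germ-free mice. The groups did not overlap, the germ-free mice were the more variable, and the gene was 5.07-fold lower (−2.34, SE 0.29, adjusted p = 2.5e-06). The nucleic acid sensor Zbp1 was lower by −1.16, Oasl2 by −1.11, Xaf1 by −0.95, Ifitm3, which blocks viral entry, by −0.84, Ifit3 by −0.80 and Sp100 by −0.76. Isg15 (−0.38, adjusted p = 0.12) and Rsad2 (0.04, adjusted p = 0.94), an inhibitor of viral replication, did not pass the test.

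These genes are known for an interferon-stimulated response element in the promoter, sought here on both strands as GAAA, any 2 bases and GAAA. The windows of Ifit1 and Ifit3, 160 bases before the start of each gene on the plus strand of GRCm38.p6, are printed as examples. Both genes were called lower and both windows hold 2 matches, in capitals.
Ifit1: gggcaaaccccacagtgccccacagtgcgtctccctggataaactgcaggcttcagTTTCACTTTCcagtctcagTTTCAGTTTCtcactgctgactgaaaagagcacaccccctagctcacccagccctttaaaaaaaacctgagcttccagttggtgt
Ifit3: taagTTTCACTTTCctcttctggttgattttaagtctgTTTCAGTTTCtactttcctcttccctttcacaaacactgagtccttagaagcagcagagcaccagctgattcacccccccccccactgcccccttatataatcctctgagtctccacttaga
The window of Ifit1 is chr19:34640729-34640888, with matches 104 and 85 bases before the start, and that of Ifit3 is chr19:34583369-34583528, with matches 156 and 122 bases before it. Over whole promoter entries, the element was found in 13 of the 23 antiviral genes with an entry (56.5%) and in 576 of all 14749 promoters (3.90%). Among genes called lower it was found in 84 of 1132 (7.40%), and among genes called higher in 20 of 841 (2.40%). Of the antiviral genes called lower, 8 of 14 (57.1%) held the element, a share close to that of all 23. Isg15, with 3 matches, and Bst2, with 2, were not called. These shares describe letters in a promoter entry and were given no test.

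Genes of cytotoxic and intraepithelial lymphocytes, which patrol the epithelium, were lower in 15 of 23 and higher in 0, with a median of −0.60. Gzma, granzyme A (chr13:113093824-113100981), was at 7.55, 6.82, 6.84 and 6.92 in conventional and at 3.91, 4.15, 3.71 and 4.41 in germ-free mice. It was 7.94-fold lower (−2.99, SE 0.32, adjusted p = 2.9e-07). Ccl5, a chemokine that such cells release, was at 8.14, 7.47, 7.46 and 7.64 in conventional and at 4.53, 5.42, 4.51 and 5.14 in germ-free mice (−2.77, SE 0.23, adjusted p = 3e-09). In both genes conventional mouse 1 was the highest and no germ-free mouse came near the conventional range. Cd8a, the alpha chain of CD8, was at 6.94, 6.55, 6.45 and 5.91 in conventional and at 4.84, 5.03, 4.67 and 4.63 in germ-free mice (3.18-fold lower, adjusted p = 1e-07). Cd7 (−2.47), granzyme B (Gzmb, −2.37), Nkg7 of cytotoxic granules (−1.68), the gut homing receptor Ccr9 (−1.48) and the integrin Itgae, which holds lymphocytes to epithelium (−1.27), were also lower. Perforin (Prf1) was at 4.50 ± 0.30 and 4.43 ± 0.26 (SD, n = 4) and was not called.

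Of 21 T cell genes, 12 were lower and 0 higher, with a median of −0.52, and 8 were lower without germ-free mice 2 and 3. Cd3g, a subunit of the T cell receptor complex, was at 6.80, 6.12, 6.28 and 6.23 in conventional and at 3.85, 4.24, 3.71 and 3.98 in germ-free mice. The groups did not overlap and the difference was 5.33-fold (−2.41, SE 0.18, adjusted p = 7.2e-10). Cd3e was lower by −1.96 and Thy1 by −1.09. Cd4, the coreceptor of helper T cells and also of some myeloid cells, was at −0.21 (adjusted p = 0.31) and did not pass the test.

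Genes of plasma cells and IgA transport were lower in 11 of 17 and higher in 0, with a median of −0.72. Jchain was at 10.07, 9.81, 9.73 and 9.42 in conventional and at 6.40, 8.15, 6.45 and 7.11 in germ-free mice (−2.73, SE 0.27, adjusted p = 8.8e-08). Igha, the constant region of IgA, was at 9.27, 9.70, 9.68 and 7.88 in conventional and at 5.45, 8.19, 8.13 and 5.90 in germ-free mice. Its groups overlapped, since conventional mouse 4 lay below germ-free mice 2 and 3, and the call was weaker (−2.22, SE 0.57, adjusted p = 0.0088). With the 3 probe sets of Igha averaged, the difference was −1.64, and without germ-free mice 2 and 3 it was −3.46 (adjusted p = 0.00024). Igkv6-20 was at 9.25, 10.13, 9.75 and 8.03 in conventional and at 4.49, 5.93, 4.37 and 5.27 in germ-free mice. Of 12 Igkv genes measured, 9 were lower and 0 higher, with a median of −2.07, a family looked at after its values were seen. Pigr, the epithelial receptor that carries IgA into the lumen, was at 12.01, 12.03, 11.97 and 12.08 in conventional and at 11.36, 11.36, 11.52 and 11.51 in germ-free mice. Its groups were tight and apart, by 1.5-fold (adjusted p = 8.4e-08). Derl3, which clears misfolded protein in secretory cells (−1.35), the survival receptor Tnfrsf17 (−1.17), Irf4 (−1.11), Mzb1 (−1.07), the B cell survival factor Tnfsf13b (−0.87) and the epithelial chemokine Ccl28 (−0.62) were also lower. Xbp1, a factor of secretory cells that the epithelium also expresses, was not called (−0.14, adjusted p = 0.37).

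Of 23 B cell and follicle genes, 5 were lower and 0 higher, with a median of −0.20. Without germ-free mice 2 and 3 the lower genes were 2, as they were without conventional mouse 1, conventional mouse 3 or germ-free mouse 1. Cd37 was at −0.84 and Cd79b, of the B cell receptor, at −0.81. Ms4a1, the B cell antigen CD20, was at −0.27 (adjusted p = 0.52). Of 28 macrophage and dendritic cell genes, 10 were lower and 1 higher, with a median of −0.26, and 0 were higher without germ-free mice 2 and 3. The integrin Itgam was lower by −0.92, the growth factor receptor Csf1r by −0.64 and Cx3cr1 by −0.42, while Adgre1 (−0.16, adjusted p = 0.46) and Cd68 (−0.09, adjusted p = 0.65) did not pass the test. Granulocyte and mast cell genes were lower in 2 of 23 (8.70%), near the 7.93% of all genes. Pattern recognition receptors and adaptors were lower in 5 of 31, among them Tlr1 (−0.61), the flagellin receptor Tlr5 (−0.49) and the lipopolysaccharide binding protein Lbp (−0.69). Without conventional mouse 4 or germ-free mouse 4, 3 of them were called, and Tlr5 was not (adjusted p = 0.066 and 0.093). Tlr4 (−0.34, adjusted p = 0.11), Myd88 (−0.12, adjusted p = 0.35) and Nod2 (0.00, adjusted p = 0.99) were not called. Of 22 type 17 and innate lymphoid genes, 3 were lower, with the cytokine receptor Il7r at −0.71 and lymphotoxin beta (Ltb) at −0.70. Il17a lay near 3 in both groups, at 2.98 ± 0.28 and 3.06 ± 0.22 (SD, n = 4).

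Epithelial genes known to be induced by interleukin-22 were lower in 11 of 20 and higher in 0, with a median of −0.69, and 1 was higher without germ-free mice 2 and 3. The study itself names some members of this list, so its direction is not independent evidence. Reg3g, a lectin that kills Gram-positive bacteria, was at 12.15, 12.41, 12.17 and 12.26 in conventional and at 10.91, 11.40, 11.07 and 11.07 in germ-free mice (2.20-fold lower, SE 0.11 log2, adjusted p = 3.4e-08). Its neighbour Reg3b was at 12.40, 12.61, 12.52 and 12.48 in conventional and at 11.32, 11.93, 11.68 and 11.68 in germ-free mice (1.80-fold lower, adjusted p = 3.3e-06). Both lectins lay above 10 in every mouse, and neither overlapped between groups. Reg3a went the other way. It was at 7.32, 7.33, 7.25 and 7.50 in conventional and at 8.71, 9.05, 8.32 and 8.44 in germ-free mice (2.42-fold higher, adjusted p = 4e-05). Serum amyloid A is an acute phase protein that the ileum makes in contact with microbes. A probe set shared by Saa1 and Saa2 was at 6.39, 7.35, 7.29 and 6.09 in conventional and at 2.58, 2.33, 2.68 and 1.93 in germ-free mice. That difference was 21.1-fold (−4.40, SE 0.32, adjusted p = 9.5e-09 in a fit over all probe sets). The separate probe set of Saa2 alone was at 2.91 ± 0.22 (SD, n = 4) in conventional and 2.83 ± 0.38 in germ-free mice and was not called (−0.08, SE 0.15, adjusted p = 0.81). Saa3 was lower by −1.03 and Retnlb, a goblet cell protein, by −1.48.

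Oxidases and nitric oxide synthase, which release hydrogen peroxide and nitric oxide, were lower in 6 of 11 and higher in 0, with a median of −0.37. Duoxa2, which brings the oxidase Duox2 to the membrane, was at 8.88, 9.04, 9.24 and 8.48 in conventional and at 6.76, 6.15, 6.75 and 5.97 in germ-free mice (5.67-fold lower, SE 0.28 log2, adjusted p = 5.5e-07). Nos2, the inducible nitric oxide synthase, was at 8.78, 8.69, 8.70 and 8.24 in conventional and at 7.38, 5.44, 7.25 and 5.86 in germ-free mice. In Nos2, germ-free mice 1 and 3 lay well above 2 and 4, and all were below the conventional mice (4.34-fold lower, adjusted p = 0.00016). Duox2 was lower by −1.68, the oxidase subunit Cyba by −1.16 and the organizer Noxo1 by −0.43.

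Paneth cells, at the base of the crypts, store antimicrobial peptides. Of 11 of their products, 9 were lower and 0 higher, with a median of −0.66, and 6 were lower without germ-free mice 2 and 3. Ang4, a ribonuclease that kills bacteria, was at 9.22, 9.40, 9.36 and 9.18 in conventional and at 8.82, 8.15, 8.73 and 8.80 in germ-free mice. Its groups did not overlap (−0.66, SE 0.15, adjusted p = 0.0038), but it was not called without germ-free mice 2 and 3 (−0.48, adjusted p = 0.078). Nupr1, a stress-induced nuclear protein, was at 9.33, 9.19, 9.16 and 9.10 in conventional and at 8.35, 8.04, 8.35 and 8.45 in germ-free mice (1.86-fold lower, adjusted p = 8.4e-08). Mptx1 (−1.30), Habp2 (−0.78), the phospholipase Pla2g2a (−0.74), the protease Mmp7 that activates defensins (−0.72), the lectin Itln1 (−0.44) and the defensin Defa24 (−0.37) were also lower. Lysozyme (Lyz1) was the smallest, at −0.17 (adjusted p = 0.012), and was not called without germ-free mouse 2 (−0.13, adjusted p = 0.064). Goblet cell genes were lower in 3 of 15, with a median of −0.06. Muc2, the main secreted mucin, was at −0.12 (adjusted p = 0.13) and Tff3 at −0.10, while Spink4 was lower by −0.52 and the chemokine Ccl6 by −0.86.

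Enzymes of glycosylation build the sugar coat that microbes bind and feed on. Of 26, 6 were lower and 2 higher, with a median of −0.05. Fut2, which adds fucose to epithelial surfaces, was at 5.61, 6.45, 6.71 and 5.87 in conventional and at 4.75, 4.87, 5.17 and 4.70 in germ-free mice (2.44-fold lower, SE 0.21 log2, adjusted p = 0.00012). Gcnt1, which branches mucin-type sugars, was at 6.62, 6.09, 6.34 and 6.17 in conventional and at 4.18, 4.63, 4.52 and 4.08 in germ-free mice (3.87-fold lower, adjusted p = 5.3e-08). Neither gene overlapped between the groups. B3galt5 was lower by −1.85 and St6gal1, a sialyltransferase, by −0.40, and B4galnt1 was higher by 0.46.

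The transporter Slc6a14 (chrX:21714900-21742358), which takes up neutral and basic amino acids with sodium and chloride, was the third lowest called gene. It was at 10.02, 10.22, 10.18 and 10.30 in conventional and at 3.79, 7.31, 7.19 and 5.64 in germ-free mice. Conventional mice were almost equal, while germ-free mice ranged over more than 3 log2 units, and the difference was 18.4-fold (−4.20, SE 0.55, adjusted p = 5.7e-06). Of 26 amino acid and peptide transporters, 5 were higher and 4 lower, with a median of 0.10. Leaving out germ-free mice 2 and 3 left 6 higher and 1 lower. Slc6a20b (0.83) and the aromatic amino acid carrier Slc16a10 (0.55) were higher. The list also counted Slc5a12 (1.20), which carries monocarboxylates and not amino acids, among its higher genes. The cystine carrier subunit Slc7a9 (−0.29) and the glutamate carrier Slc1a1 (−0.38) were lower.

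Sterol and fatty acid synthesis was higher in 14 of 32 genes and lower in 0, with a median of 0.27, and 5 were higher without germ-free mice 2 and 3. Without conventional mouse 2, 9 were higher, and 8 without conventional mouse 3 or germ-free mouse 3. Thrsp, a nuclear protein that promotes lipid synthesis, was at 6.86, 5.91, 5.99 and 6.17 in conventional and at 7.37, 9.91, 9.96 and 8.03 in germ-free mice. Me1, malic enzyme, which supplies NADPH for fatty acid synthesis, was at 7.37, 6.97, 7.0 and 6.90 in conventional and at 8.71, 9.93, 9.89 and 8.87 in germ-free mice. Neither gene overlapped between groups, and in both, germ-free mice 2 and 3, the mice with the highest adipocyte genes, were the highest. Thrsp was 6.01-fold higher (2.59, SE 0.48, adjusted p = 0.00044), and 1.47 without those mice (adjusted p = 0.046). Me1 was 4.89-fold higher (2.29, SE 0.32, adjusted p = 1.4e-05), and 1.73 without them (adjusted p = 0.0018). The desaturase Scd1 (1.61), the acetyl-CoA carboxylase Acaca (0.87), ATP citrate lyase (Acly, 0.81) and the lipase Pnpla3 (1.25) were also higher. Fatty acid synthase (Fasn, 1.51) was called over all mice but not without germ-free mice 2 and 3 (0.84, adjusted p = 0.063). The enzymes of cholesterol synthesis Hmgcs1 (0.18, adjusted p = 0.18) and Sqle (−0.03, adjusted p = 0.90) did not pass the test. The Y box letters of class II promoters were also found in 17 of 25 promoters of this list (68.0%).

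Adipocyte genes were higher in 8 of 16 and lower in 0, with a median of 0.89, against 1 higher and a median of 0.19 without germ-free mice 2 and 3. Without germ-free mouse 2 or 3 alone, 3 were higher, and 4 without conventional mouse 2 or 3. Fabp4, the fatty acid carrier of adipocytes, was at 7.14, 6.98, 7.22 and 7.16 in conventional and at 7.11, 9.16, 9.47 and 7.78 in germ-free mice. Its groups overlapped through germ-free mouse 1 (1.25, SE 0.38, adjusted p = 0.026). Of the 16 genes, 3 (Thrsp, Cidec and Pck1) also stand in the lists of lipid or sugar metabolism. The part of adhering fat in the higher lipid genes was not tested.

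Targets of the PPAR receptors and fatty acid oxidation were higher in 11 of 27 and lower in 0, with a median of 0.35. Angptl4, a secreted inhibitor of lipoprotein lipase, was at 6.83, 6.66, 6.78 and 6.81 in conventional and at 8.51, 9.42, 8.31 and 8.96 in germ-free mice (4.08-fold higher, SE 0.25 log2, adjusted p = 2.5e-06). Every germ-free mouse lay at least 1 log2 unit above the conventional mice. Pdk4, which restrains glucose oxidation (1.42), the peroxisomal enzyme Ehhadh (0.69), the receptor Ppara (0.56) and the thiolase Acaa2 (0.53) were higher. Cpt1a, the gate of fatty acids to mitochondria, was at 0.03 (adjusted p = 0.88). Lipid absorption and chylomicron assembly had 10 genes higher and 4 lower of 29, with a median of 0.19, and 10 higher and 2 lower without germ-free mice 2 and 3. Fabp1, a fatty acid binding protein of the proximal gut, was at 5.22, 5.76, 5.83 and 6.10 in conventional and at 8.53, 7.96, 6.75 and 8.68 in germ-free mice. The groups did not overlap (4.76-fold higher, SE 0.59 log2, adjusted p = 0.01), with germ-free mouse 3 the lowest of its group. Apoa4 (1.02) and Apoc3 (0.75) of lipoproteins, the synthetase Acsl5 (0.59), the chylomicron assembly protein Mttp (0.46) and Fabp2 (0.40) were higher. Colipase (Clps, −0.88) and the sterol exporter Abcg8 (−0.40) were lower.

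Genes of sugar transport and metabolism were higher in 5 of 23 and lower in 1, with a median of 0.09. The higher genes were 3 without conventional mouse 2, 3 or 4 or germ-free mouse 2 or 4, and the lower were 3 without both germ-free mice 2 and 3. Slc5a4b (chr10:76058618-76111018) was the highest of all called genes. It was at 5.39, 5.17, 5.39 and 4.93 in conventional and at 8.99, 8.24, 6.99 and 8.58 in germ-free mice, with a gap of over 1 log2 unit between the groups (7.89-fold, SE 0.34 log2, adjusted p = 8.4e-07). The main glucose and fructose carriers were not called, with Slc5a1 at −0.13 (adjusted p = 0.30), Slc2a2 at −0.18 (adjusted p = 0.79) and Slc2a5 at −0.01 (adjusted p = 0.98). Brush border hydrolases, which finish digestion at the enterocyte surface, were higher in 4 of 27 and lower in 0, with a median of −0.01, and 5 were higher and 1 lower without germ-free mice 2 and 3. Trehalase (Treh, 0.78), the peptidase Mme (0.69) and sucrase-isomaltase (Sis, 0.27) were higher. Lactase (Lct), an enzyme of the proximal gut, was at 4.62, 4.39, 4.27 and 3.91 in conventional and at 7.37, 4.03, 4.29 and 4.88 in germ-free mice. Germ-free mouse 1 alone was far above the others, and the groups overlapped (0.84, SE 0.41, adjusted p = 0.19). Without germ-free mice 2 and 3 it was called (1.83, adjusted p = 0.0027).

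Genes listed for the proximal small intestine were higher in 6 of 18 and lower in 2, with a median of 0.06. The 2 lower ones were Adh6a (−1.08) and the homeobox gene Hoxb5 (−0.54). Genes listed for the distal part were higher in 2 of 15 and lower in 2. In each list 1 gene was lower without germ-free mice 2 and 3. The mean of the proximal list was −0.25 to −0.03 in conventional and 0.49, 0.03, −0.07 and 0.13 in germ-free mice 1 to 4. Germ-free mouse 1 was the highest and germ-free mouse 3 lay within the conventional range. The distal list counted Enpp7 among its higher genes, although Enpp7 is the alkaline sphingomyelinase of the upper gut. Enpp7 was at 7.88, 7.52, 7.42 and 7.24 in conventional and at 10.60, 8.24, 8.00 and 9.51 in germ-free mice (2.97-fold higher, SE 0.43 log2, adjusted p = 0.013). Without germ-free mouse 1 the difference was 1.07 and was not called (adjusted p = 0.071), while without germ-free mice 2 and 3 it was 2.54 (adjusted p = 0.00021). The part of the exact site of sampling along the ileum was not tested.

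Enzymes of the first phase of foreign compound metabolism, which oxidise or cleave such compounds, were higher in 19 of 41 and lower in 6, with a median of 0.29. Cyp2j6, an epoxygenase, was at 8.22, 8.37, 8.26 and 8.23 in conventional and at 9.69, 9.68, 9.22 and 9.70 in germ-free mice (2.47-fold higher, SE 0.12 log2, adjusted p = 1.4e-08). Aadac, an esterase of the endoplasmic reticulum, was at 5.34, 5.94, 5.84 and 6.16 in conventional and at 8.11, 7.81, 7.67 and 7.68 in germ-free mice (3.98-fold higher, adjusted p = 3.8e-07). The carboxylesterases went in both directions. Ces1f (1.52) and Ces1g (1.81) were higher, whereas Ces2a was at 9.17, 9.27, 9.29 and 9.33 in conventional and at 8.33, 7.25, 6.80 and 7.54 in germ-free mice (3.44-fold lower, adjusted p = 9.1e-06). None of these 3 genes given per mouse overlapped between groups. The monooxygenase Cyp4b1 (1.16), the epoxide hydrolase Ephx2 (1.02), the reductase Cbr1 (0.93) and the retinal dehydrogenase Aldh1a1 (0.91) were higher, and Cyp3a25 was lower by −1.56. Cyp1a1, the classical target of the aryl hydrocarbon receptor, lay at 2.55 ± 0.23 and 2.81 ± 0.22 (SD, n = 4) and was not called (adjusted p = 0.15). Of 92 genes with symbols that start with Cyp, counted after their values were seen, 17 were higher and 5 lower.

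Conjugation and export, the later phases, were higher in 10 of 34 and lower in 0, with a median of 0.20. Gclc, the rate-limiting enzyme of glutathione synthesis, was at 8.34, 8.34, 8.37 and 8.40 in conventional and at 9.54, 9.73, 9.20 and 9.31 in germ-free mice (2.12-fold higher, SE 0.11 log2, adjusted p = 9e-08). Conventional mice were almost equal and lay well below every germ-free mouse. The glutathione transferases Gsta3 (1.15), Gsta4 (0.94), Gstm3 (0.88) and Mgst1 (0.68) and the exporter Abcg2 (0.41) were also higher. A probe set shared by Gsta1, Gsta2 and related genes was at 6.99, 7.68, 7.52 and 7.56 in conventional and at 9.79, 10.20, 10.04 and 10.10 in germ-free mice (6.05-fold higher, adjusted p = 4.7e-10 in the fit over all probe sets). Retinoid uptake and metabolism, which turns dietary vitamin A into retinyl esters and retinoic acid, was higher in 8 of 26 and lower in 0, with a median of 0.16. Rdh7 (1.64) and Retsat (0.90) oxidise or saturate retinol, Rbp2 (0.60) carries it in enterocytes, and Lrat (0.55) esterifies it.

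Of 31 genes of vitamin, iron and mineral absorption, 5 were higher and 8 lower, with a median of −0.02. Tfrc, the transferrin receptor that brings iron into cells, was at 7.97, 7.90, 8.13 and 7.88 in conventional and at 9.76, 9.65, 9.67 and 9.71 in germ-free mice. Its groups were tight, more than 1 log2 unit apart, and the difference was 3.32-fold (1.73, SE 0.11, adjusted p = 3.9e-11). The iron exporter ferroportin (Slc40a1) was lower by −1.0, the reductase Cybrd1 by −0.45 and the folate and heme carrier Slc46a1 by −0.94. The iron importer Slc11a2 was higher by 0.29. Mt2, a metallothionein that binds zinc and copper, was at 9.67, 9.69, 9.57 and 9.58 in conventional and at 11.28, 11.15, 10.99 and 11.78 in germ-free mice (3.19-fold higher, adjusted p = 5.5e-07), and Mt1 was higher by 0.91. The zinc importer Slc39a4 (−0.79) and the manganese exporter Slc30a10 (−1.51) were lower. S100g, the calcium binding protein calbindin-D9k, was at 7.43, 6.35, 6.28 and 6.15 in conventional and at 4.64, 4.62, 5.30 and 5.28 in germ-free mice. Conventional mouse 1 stood above its group, and the groups did not overlap (3.01-fold lower, SE 0.26 log2, adjusted p = 0.00011).

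Ion and water transport had 5 genes higher and 4 lower of 32, with a median of −0.02, and 5 higher and 2 lower without germ-free mice 2 and 3. The largest difference of the list, −3.40, belonged to a gene that was not called. Slc9a3, the sodium and hydrogen exchanger of the brush border, was at 7.08, 7.28, 7.43 and 7.06 in conventional and at 5.85, 5.32, 5.13 and 5.16 in germ-free mice (3.60-fold lower, SE 0.22 log2, adjusted p = 1.6e-06). All germ-free mice were below all conventional mice. Its partner in salt uptake, the chloride and bicarbonate exchanger Slc26a3, was higher by 0.61. The water and glycerol channel Aqp3 (1.6), the chloride channel Cftr (0.48) and guanylin (Guca2a, 0.32), a peptide that promotes salt secretion, were higher. The chloride channel Ano1, also a marker of pacemaker cells of the gut wall, was lower by −0.77.

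Bile acids are modified by bacteria and drive the nuclear receptor FXR in the ileum. Of 19 genes of bile acid transport and FXR targets, 3 were lower and 1 higher, with a median of 0.02. Fgf15, the hormone that FXR induces and that restrains bile acid synthesis in the liver, was at 9.75, 8.88, 8.86 and 9.80 in conventional and at 8.98, 5.47, 7.86 and 6.93 in germ-free mice. It varied widely, and germ-free mouse 1 lay above conventional mice 2 and 3. It was called at −2.01 (SE 0.56, adjusted p = 0.015), but not without germ-free mouse 2 (−1.40, adjusted p = 0.091), nor without germ-free mice 2 and 3 (−1.37, adjusted p = 0.18). Slc10a2, the apical bile acid importer, was at 10.99, 10.79, 10.83 and 10.96 in conventional and at 10.80, 11.42, 10.74 and 11.09 in germ-free mice. The groups overlapped and it was not called (0.12, SE 0.10, adjusted p = 0.50). The basolateral transporter subunit Slc51b was lower by −0.25 and the sterol hydroxylase Cyp27a1 by −0.50. Its partner Slc51a (−0.13, adjusted p = 0.28) and FXR itself (Nr1h4, −0.03, adjusted p = 0.90) were not called.

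Of 15 crypt stem cell genes, 5 were lower and 0 higher, with a median of −0.17, and 2 were lower without germ-free mice 2 and 3. With conventional mouse 1, conventional mouse 3 or germ-free mouse 2 left out, 3 were lower. Lgr5, the receptor that marks cycling stem cells, was lower by −0.53 and the Wnt regulators Rnf43 and Tnfrsf19 by −0.37 and −0.38, of which Rnf43 was not called without germ-free mice 2 and 3 (adjusted p = 0.088). Of 26 cell cycle genes, 7 were higher and 0 lower, with a median of 0.23, and 11 were higher without germ-free mouse 2. Cdc20 (0.49), Aurka (0.45) and Ccna2 (0.45), which act in mitosis, were higher, and Mki67 was at 0.22 (adjusted p = 0.13). Subunits of the respiratory chain were higher in 10 of 30 and lower in 0, with a median of 0.11, and 3 were higher without germ-free mice 2 and 3 and 6 without conventional mouse 2. Ndufa4 was at 0.46 and Uqcrfs1 at 0.31.

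Enteroendocrine genes were higher in 2 and lower in 6 of 26, with a median of −0.10, and 1 was higher and 1 lower without germ-free mice 2 and 3. Without conventional mouse 3, 3 were lower. Gip, an incretin of the proximal gut, was higher by 0.74 and Peg3 lower by −0.51. Gcg, which encodes glucagon-like peptides, was at −0.01 (adjusted p = 0.98), Pyy at −0.30 (adjusted p = 0.097) and Cck at −0.25 (adjusted p = 0.32). Tuft cell markers were lower in 3 of 15, and in 0 without those mice. Tight junction genes were higher in 1 and lower in 1 of 18 (5.56% each), against 5.6% and 7.93% of all genes, with 0 lower without those mice. Clock genes were higher in 1 of 16 (6.25%, against 5.6% of all genes), and in 0 without those mice. Endoplasmic reticulum stress genes were higher in 3 of 20 with a median of 0.15, and in 1 with a median of 0.06 without them. Antimicrobial and C-type lectins were higher in 2 of 12 and lower in 3, and 1 was higher without them. Pancreas genes were lower in 1 of 13 (7.69%), near the 7.93% of all genes.

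Smooth muscle genes were lower in 16 of 19 and higher in 0, with a median of −0.50. Myh11, the smooth muscle myosin heavy chain, was at 11.02, 10.87, 10.96 and 10.99 in conventional and at 10.42, 9.94, 10.70 and 10.44 in germ-free mice (1.5-fold lower, SE 0.09 log2, adjusted p = 9.6e-05). The groups did not overlap, and germ-free mouse 2 was the lowest. Tpm2 (−0.75), Tagln (−0.63), desmin (Des, −0.60) and smooth muscle actin (Acta2, −0.41) were lower. Acta2 was at −0.26 without germ-free mouse 2 (adjusted p = 0.0081). Enteric neuron and glia genes were lower in 10 of 24 and higher in 1, with a median of −0.34, and 0 were higher without germ-free mice 2 and 3. Snap25, of the synaptic release machinery, was at 7.63, 7.56, 7.70 and 7.86 in conventional and at 7.09, 6.12, 7.19 and 6.61 in germ-free mice (1.91-fold lower, adjusted p = 0.0001). Germ-free mouse 2 was again the lowest, and no germ-free mouse reached the conventional range. The opioid precursor Penk (−1.07), Syt1 (−0.88), Calb2 (−0.83) and the peptide Vip (−0.72) were lower. Endothelial genes were lower in 7 of 21, with Pecam1 at −0.48 and Cd34 at −0.46, and fibroblast genes in 9 of 25, with the BMP antagonist Grem1 at −0.67. Without conventional mouse 3, 3 endothelial and 5 fibroblast genes were lower, and 5 fibroblast genes also without conventional mouse 2 or germ-free mouse 1. The collagens Col1a1 (0.12, adjusted p = 0.46) and Col3a1 (−0.05, adjusted p = 0.78) were not called. The part of the depth of the sampled wall in these differences was not tested.

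Among 307 genes of microRNA precursors, 3 were higher and 4 lower. Over all genes 5.6% were higher and 7.93% lower, so these precursors were called less often. The probe sets read the precursor or its host transcript, not the mature microRNA. Mir194-1, an epithelial microRNA gene, was at 5.56, 5.58, 5.53 and 5.63 in conventional and at 7.16, 7.12, 5.99 and 7.25 in germ-free mice (2.48-fold higher, SE 0.28 log2, adjusted p = 0.0022). Mir200b, of the family that holds epithelial identity, was at 4.48, 4.40, 4.04 and 4.79 in conventional and at 5.23, 5.58, 5.46 and 5.72 in germ-free mice (2.10-fold higher, SE 0.26 log2, adjusted p = 0.0053). In both genes all germ-free mice lay above all conventional mice, with germ-free mouse 3 much lower than its group in Mir194-1. The mature products of both genes are printed from RefSeq with the seed, bases 2 to 8, in capitals, because the seed sets the targets.
mmu-miR-194-5p: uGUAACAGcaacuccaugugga
mmu-miR-194-1-3p: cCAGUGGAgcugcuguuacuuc
mmu-miR-200b-3p: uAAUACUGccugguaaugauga
mmu-miR-200b-5p: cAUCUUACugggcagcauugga
The 4 seeds differ from each other. In GRCm38.p6, miR-194-5p lies at chr1:185313325-185313346 on the plus strand and miR-200b-3p at chr4:156055685-156055706 on the minus strand. Mir93 (0.32, adjusted p = 0.050) was the other higher gene, and it lost the call when any 1 of 6 mice was left out (adjusted p from 0.052 to 0.19). The lower genes were Mir145a (−0.76) and Mir143 (−0.67), which are known from smooth muscle, Mir490 (−0.64) and Mir717 (−0.42). Mir145a was at −0.47 without germ-free mouse 2 (adjusted p = 0.046). Mir490 was not called without that mouse (adjusted p = 0.065), nor Mir717 without conventional mouse 3 (adjusted p = 0.065).

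Probe sets shared by several genes were tested apart, in a fit over all 35556 probe sets. Of 1881, 66 were higher and 107 lower, and of all probe sets 7.97% were called. Besides the Saa and Gsta sets, one for H2-DMb1 and H2-DMb2, the partners of H2-DMa, was 3.18-fold lower (−1.67, SE 0.15, adjusted p = 2.3e-07). A set for interleukin-22 and its copy was at −1.04 (adjusted p = 0.10) and a set for Hspa1a and Hspa1b, heat shock proteins, at 1.40 (adjusted p = 0.12). Neither passed the test. The interleukin-22 set was low and uneven, at 2.98, 5.22, 5.33 and 3.50 in conventional and at 3.13, 3.19, 3.22 and 3.34 in germ-free mice.

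The same comparison was made in 16 other mice, given short-chain or long-chain β2→1-fructan, which share no animal with the water groups. In short-chain mice 2832 genes were called (15%), and in long-chain mice 2983 (15.9%). Of the 2547 water calls, 1561 (61.3%) were called the same way in short-chain mice and 1701 (66.8%) in long-chain mice. None was called the opposite way, and the sign was the same in 2487 and 2520. In both, 1263 (49.6%) were called, 532 higher and 731 lower, while 225 had an unadjusted p over 0.05 in both. H2-Ab1 was at −1.67 in short-chain and −2.02 in long-chain mice, Gzma at −3.14 and −3.41, Duoxa2 at −3.55 and −3.13, Tfrc at 1.73 and 1.65, and Slc5a4b at 3.23 and 2.11. Fgf15, which varied on water, was at −4.94 and −3.74. Adipoq was at 2.92 and 1.82, against 0.89 on water. Mir194-1 was at 0.75 in short-chain mice, where it was not called (adjusted p = 0.080), and at 1.01 in long-chain mice.

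**Figure D5:**
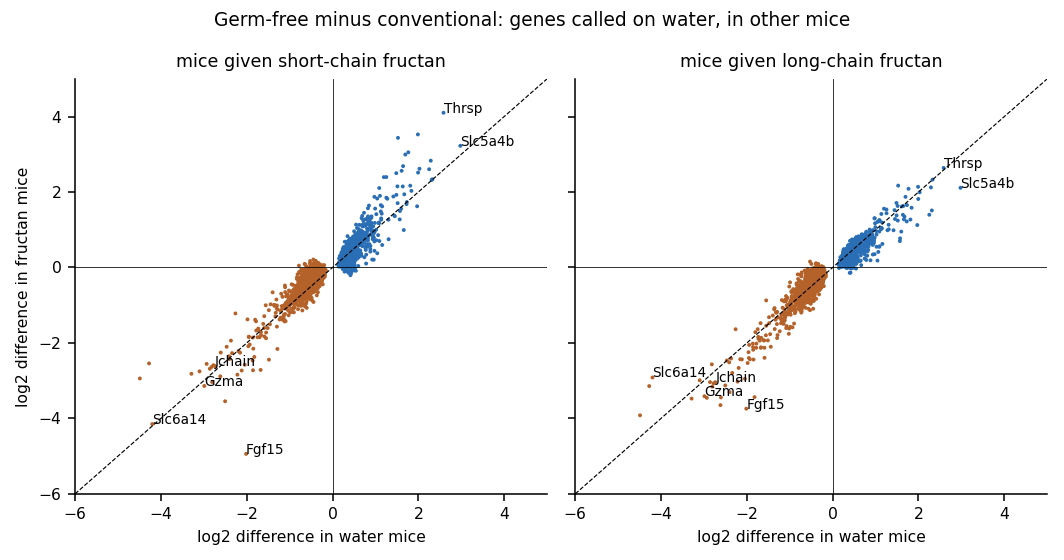
Log2 difference of germ-free from conventional animals among those given short-chain or long-chain fructan (vertical axes) against that in water mice (horizontal axes), 1 point per gene called on water, blue for higher and brown for lower; the dashed line marks equal differences. Of 2547 genes, 2487 and 2520 had the same sign, and 0 were called the opposite way.

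Whether the difference itself depended on the fructan was tested by the contrast of both differences, which shares the water mice. By limma, 0 genes passed an adjusted p under 0.05 for either fructan, with 1025 genes for short-chain and 704 for long-chain fructan at an unadjusted p under 0.05, and 133 and 100 at the thresholds of the study. The smallest p for short-chain fructan belonged to Cndp1 (0.60), Hp (1.5), Kbtbd6 (0.91), Mir505 and Olfr1248, and for long-chain fructan to Gpr31b (−0.91, adjusted p = 0.26), Grhpr, Apaf1, Tmem71 and Sarm1. Without germ-free mice 2 and 3, Bco1 and Dhrs7 passed for short-chain (adjusted p = 0.041 for both) and Bco1 for long-chain fructan (adjusted p = 0.048), genes named after their values were seen.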

How the data were processed

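Expression in terminal ileum was measured with 1 array per mouse, 24 arrays in 6 groups of 4. The authors deposited 1 log2 value per probe set and array, made by RMA (background correction, quantile normalization, probe summary). The methods of the study name a remapped probe set definition, whereas the deposited values carry the maker's probe set numbers. How many arrays there are limits the precision. No column of samples outside the series was present.

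Of 35556 probe sets, 21218 carried 1 symbol, 1881 several and 12457 none in the platform table. Where a gene had several single-symbol sets (1386 genes), the set with the highest mean was used, which left 18820 genes. Of these, 18790 had a position in the RefSeq table of GRCm38.p6. Group means of all 6 groups were fitted in R 4.3.3 with limma 3.58.1 (eBayes with trend) and p adjusted over all genes by Benjamini-Hochberg. The fit was tested on simulated data. No set test was made.

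The text names the 15 highest and 15 lowest called genes, up to 5 genes of each list by p plus genes that define its cell type, genes often examined in germ-free mice, and the 5 smallest p of each contrast of differences. A few further list members are named as examples that were not called or fill a pathway. Members and lists were chosen with earlier results of these data known. Alternatives were another prior, the 8 water arrays alone, cyclic loess, averaged probe sets, array weights, dim genes left out, a replicate block, each mouse left out, and the thresholds of the study. Leaving out germ-free mice 2 and 3 and the fit over shared probe sets were chosen after seeing the data. Replicate numbers did not pair the mice. Nothing says that the mice of a group came from separate cages or litters, and the p-values treat them as independent. The limma p-values set each difference against a spread estimated from all 24 arrays, not from the 8 water arrays alone. One item is not reported here.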

Additional observations from a re-analysis of the deposited data

Results flagged for a closer look

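In 6 of 100 groups of 4 mice examined, 1 mouse stood far from the others of its group by Dixon's test, and chance gives about 1 in 20. Gzma was at 7.55 in conventional mouse 1, against 6.82 to 6.92 in the others. S100g was at 7.43 in the same mouse, against 6.15 to 6.35. Nos2 was at 8.24 in conventional mouse 4, against 8.69 to 8.78. Ang4 was at 8.15 in germ-free mouse 2, against 8.73 to 8.82. Cyp2j6 was at 9.22 in germ-free mouse 3, against 9.68 to 9.70, and Mir194-1 at 5.99 in the same mouse, against 7.12 to 7.25. Each of these genes kept its groups apart despite the mouse named.

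Probe sets with no gene symbol in the platform table, whose own differences were not described above, also held differences. In a fit over all probe sets, 208 of 12457 were called higher and 241 lower, or 3.60%, against 7.97% of all probe sets (2835 calls). Their genes are not named here.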

How the results depend on the processing

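At the thresholds of the study, 1644 genes passed and 522 were higher, and 955 and 1100 water calls were repeated in short-chain and long-chain mice. At these thresholds 133 and 100 genes passed the contrast of both differences for short-chain and long-chain fructan. Fructan mice were not compared directly with water mice. Without germ-free mice 2 and 3, 601 genes were higher, and 2 and 1 genes passed the contrast of both differences for short-chain and long-chain fructan. The causes were not tested. With 1 mouse left out in turn, the calls ranged from 1899 to 2337, the higher from 700 (without conventional mouse 2) to 957 and the lower from 1144 to 1457. Repeated calls then ranged from 1274 to 1481 in short-chain and from 1413 to 1623 in long-chain mice. The contrast of both differences was passed by 0 genes throughout. The higher share of calls was 41.4%, 35.3% without germ-free mice 2 and 3, and 47.1% with dim genes left out. With the replicate number as a block, 2527 genes were called, of which 2410 were among the main calls in the same direction. The numbers share only a label: the correlations of deviations by number were 0.03, −0.01, 0.02 and −0.04. Of 2547 calls, 2294 kept the call with a common prior, 2121 with the 8 water arrays alone, 2401 with cyclic loess, 2456 with averaged probe sets and 2517 with array weights. Of 278 named genes 227 were called. Leaving aside the thresholds of the study, 33 lost the call in at least 1 alternative other than the one added after seeing the data. With that one, 51 lost it, and 0 reversed. The thresholds of the study were not counted here, and other called genes, such as Guca2a (0.32), did not pass them. Medians of 22 of 48 lists moved in at least 1 alternative. The counts of higher and of lower genes in all 48 lists moved more often. Without germ-free mice 2 and 3, 24 of these counts moved and 72 did not. At the thresholds of the study 16 moved, and with 1 mouse left out in turn 10 to 17 moved. Array signal gives no read depth, and 4 mice per group limit the precision.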
